A study of Mus musculus with 8 samples.

Results

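The galectins are described here in Lgr5-GFP+ intestinal stem cells of mice induced to stabilise β-catenin and to delete both copies or 1 copy of *Mll1* (*Kmt2a*). They are 7 genes, *Lgals1*, *Lgals2*, *Lgals3*, *Lgals4*, *Lgals8*, *Lgals9* and *Lgals3bp*, among 53801 genes in the count table, and all 7 passed the filter on low counts that left 16445 genes. The set was chosen by symbol with 1 measured value in view, the higher *Lgals3* of the knockout, so differences between the genotypes are given for these genes as a description, without p-values. A further 6 genes carry a galectin symbol, *Lgals7*, *Lgals12*, *Lgalsl*, *Grifin* and the pseudogenes *Lgals1-ps1* and *Lgals1-ps2*, and they were used for comparison only.

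Each library came from the stem cells of 1 mouse, sorted by Lgr5-GFP after staining for EpCAM, CD45 and CD24 and read by the Smart-seq2 method, which amplifies full-length cDNA from polyadenylated RNA. 4 libraries were labelled β-catGOF; Mll1-/- (knockout) and 4 were labelled β-catGOF; Mll1+/- (control). Mice were 4 to 6 weeks old, received tamoxifen at 50 mg per kg on 3 consecutive days, and were sampled at day 10. Every mouse carried the Lgr5-EGFP-IRES-CreERT2 knock-in, which restricts recombination to Lgr5-expressing cells and is active in part of the crypts, and every mouse carried the β-catGOF allele, from which exon 3 is removed. By genotype, control cells that recombined therefore also have stabilised β-catenin and lack 1 copy of *Mll1*. No library from mice without these alleles was analysed here. The sort was by Lgr5-GFP and not by recombination, so either group can hold cells that did not recombine, and their share was not measured here. The sex and the strain of the mice are not labelled.

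Galectins are small lectins that bind β-galactosides, mostly N-acetyllactosamine units on glycoproteins and glycolipids. They are made in the cytosol and leave the cell without a signal peptide, and outside the cell they cross-link receptors into lattices, while inside they mark damaged endosomes and lysosomes. *Lgals1* and *Lgals2* encode proteins of the prototype form with a single binding domain, *Lgals4*, *Lgals8* and *Lgals9* encode tandem-repeat forms with a pair of linked domains, and *Lgals3* encodes the chimera form, a binding domain with a long flexible tail through which the protein forms oligomers. *Lgals3bp* is not a galectin: it encodes a heavily glycosylated secreted protein that galectins bind. In the intestine, galectin-2 and galectin-4 are known as abundant epithelial lectins, and galectin-4 takes part in apical protein sorting in enterocytes.

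Depth lay between 14468751 and 16847793 counts on genes per library, and mitochondrial genes took 17.1 to 27.1% of them in the knockout and 23.3 to 30.1% in the control. *Kmt2a* counts over the whole gene do not show the deletion (53.5 to 78.5 CPM in the knockout, 48.9 to 64.9 in the control, as CPM, the counts of a gene per 1000000 counts of the library after TMM scaling). The sorted identity was seen in both groups, with *Epcam* at 1286 to 1697 CPM in the knockout and 1255 to 1472 in the control, and *Lgr5* at 232 to 277 and 215 to 308. The column headers of the deposited counts give library numbers, which form 2 runs of consecutive numbers called series here, each with 2 libraries of either genotype: knockout replicates 1 and 2 and control replicates 1 and 2 belong to series 1, and replicates 3 and 4 of both to series 2. Knockout replicate 3 stood apart, since its highest Spearman correlation with another library was 0.909 and the other libraries reached at least 0.947.

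*Lgals3* was the galectin whose knockout and control libraries did not overlap. It lies on chr14:47367751-47386160 on the plus strand (GRCm38, the build named mm10 in the processing notes). The 250 bases before its RefSeq start site, which itself lies inside the span counted for the gene, are printed with those of *Lgals2*, the most abundant member, because MLL1 is a methyltransferase of histone H3 lysine 4 that acts at promoters and enhancers and has a domain that binds unmethylated CpG. Capitals mark matches on either strand of the 6 motifs searched for. These were the letters TATAAA for the TATA box, the letters CCAAT for the box of that name, the letters GGGCGG for the binding box of Sp proteins, the letters AGATAA for factors of the GATA family, the letters CTTTGAT for the TCF family and the letters TTTATG for the CDX family. None of these motifs overlaps another in the printed windows. The sequences are from RefSeq on GRCm38.p6, 5′ to 3′ on the gene's strand, at chr14:47373610-47373812 (plus strand) for *Lgals3*, whose last 47 bases before the start belong to a longer transcript and are not printed, and chr15:78855530-78855779 (minus strand) for *Lgals2*.
Lgals3: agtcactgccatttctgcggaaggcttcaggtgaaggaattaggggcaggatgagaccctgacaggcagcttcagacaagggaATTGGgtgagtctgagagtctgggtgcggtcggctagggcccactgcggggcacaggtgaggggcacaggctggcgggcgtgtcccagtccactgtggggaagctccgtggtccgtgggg
Lgals2: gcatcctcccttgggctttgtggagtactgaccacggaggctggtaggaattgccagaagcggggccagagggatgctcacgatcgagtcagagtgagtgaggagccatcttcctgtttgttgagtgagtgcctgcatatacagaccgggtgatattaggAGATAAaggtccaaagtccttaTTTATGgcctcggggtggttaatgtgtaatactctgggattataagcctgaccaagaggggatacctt

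Over all 250 bases the *Lgals3* window held 13 CpG and 66% G and C, at the 70.6th and 85.2th percentiles of 32851 such windows. It held a CCAAT motif, present in 33.8% of all windows, and, in the unprinted bases, an Sp box 7 bases before the start, present in 32.7%. The *Lgals2* window held 6 CpG, the median of all windows, at 50.8% G and C, and it held a GATA-factor motif 90 bases before the start (9.99% of all windows) and a CDX motif 68 bases before it (10.8%). Of the members with a window, *Lgals3* had the most CpG, ahead of *Lgals2* with 6, *Lgals8* with 4, *Lgals9* with 3 and *Lgals4* and *Lgals3bp* with 2 each. Like that of *Lgals3*, the *Lgals8* window (chr13:12461739-12461988, minus strand) lies inside the span counted for the gene, which reaches to 12464944. The windows of *Lgals9* (chr11:78984925-78985174) and *Lgals3bp* (chr11:118401960-118402209) lie partly inside their spans, which reach to 78984946 and 118402092, so these starts are internal too. The ranking therefore sets windows at internal starts beside windows at outer ones. The TATA box and the TCF motif were in neither printed window. 6 of the 7 members had a window, and *Lgals1* had none. These counts describe the letters only, since no chromatin data were analysed here.

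In the 4 knockout libraries *Lgals3* stood at 46.1, 38.2, 36.7 and 45.5 CPM (replicates 1 to 4). In the 4 control libraries it stood at 17.2, 11.9, 17.3 and 15.5 CPM. Every knockout library was therefore above every control library, and the lowest knockout value was 2.12 times the highest control value. The means were 41.6 ± 4.83 CPM in the knockout and 15.5 ± 2.50 in the control (SD, n = 4 each), a ratio of 2.69, and the fitted log2 difference was 1.43 ± 0.19 (SE). These values rest on 660 to 781 reads per knockout library and 170 to 287 per control library. *Lgals3* was the 1 galectin of 7 past an adjusted p of 0.1 in edgeR's test over all genes, which calls 0.0851% of the genes (14, of which 8 were higher and 6 lower in the knockout, with 1505 under an unadjusted p of 0.05). It was also the 1 of 7 with every knockout library above every control library, which holds for 3.34% of all genes. This is the contrast on which the set was chosen, so nothing is read from either count. The log2 difference was 1.55 within series 1 and 1.31 within series 2. Both series hold the libraries that were in view when the set was chosen, so these values do not replicate the difference. The fitted value lay between 1.32 and 1.48 over all alternatives tried. The call itself was less stable: it was lost with the library series as a block, with *Xist* as a covariate, and when any single library other than knockout replicate 3 was left out.

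**Figure D1:**
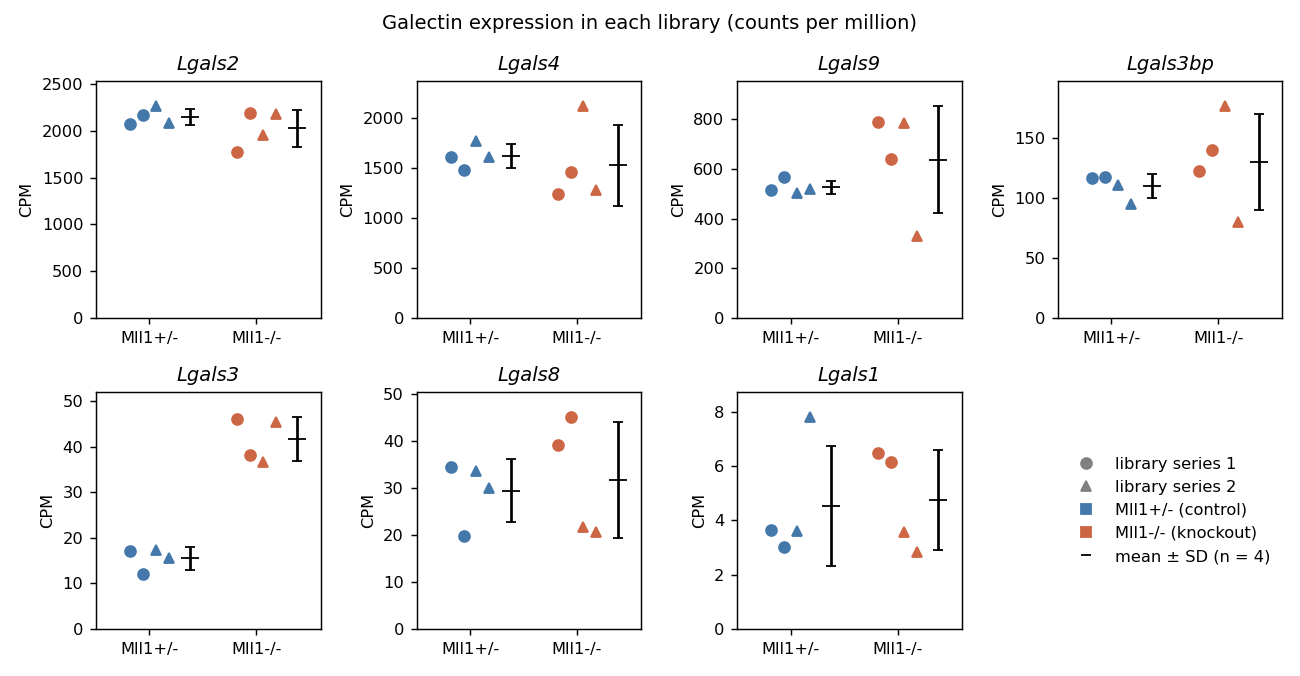
Expression of each galectin in CPM (axes from 0) in the 4 Mll1+/- and the 4 Mll1-/- libraries, with 1 symbol per library (circles for library series 1, triangles for series 2) and the mean ± SD at the right of each group. *Lgals3* is the panel in which the groups are apart, at 36.7 to 46.1 CPM in the knockout against 11.9 to 17.3 in the control, and in the other 6 panels the groups overlap.

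The other 6 members overlapped between the genotypes. *Lgals2* (chr15:78850860-78855529, minus strand) was the most abundant, with 1776, 2192, 1956 and 2180 CPM in the knockout and 2074, 2167, 2259 and 2078 CPM in the control. The means were 2026 ± 199 and 2145 ± 87.5 CPM (SD, n = 4 each), and the fitted log2 difference was -0.08 ± 0.09 (SE). It was the 24th most abundant gene in the control by CPM, of 35767 with a count there, and its highest library held 1.27 times its lowest. Its biological coefficient of variation, 0.138, was at the 0.389th percentile of all genes tested, so *Lgals2* was among the steadiest genes of these libraries. Its level was at the 99.9th percentile, and its variation was not set against that of genes of like level. On the opposite strand, 6.42% of its exonic bases overlap *Cdc42ep1*, and the counting did not use strand.

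*Lgals4* (chr7:28833854-28841708, plus strand) had 1242, 1457, 2111 and 1282 CPM in the knockout and 1607, 1477, 1771 and 1606 in the control. Knockout replicate 3 was the highest of all 8 libraries, and the other knockout libraries were below every control library. The means were 1523 ± 403 and 1615 ± 120 CPM (SD, n = 4 each), with a fitted log2 difference of -0.08 ± 0.17 (SE). Without knockout replicate 3 the fitted difference was -0.28. Some mouse strains carry *Lgals6*, a near-identical neighbour of *Lgals4* with no row among the genes analysed here, and reads from such a copy would be counted in *Lgals4*.

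*Lgals9* (galectin-9, a tandem-repeat lectin studied chiefly in immune regulation) had 789, 637, 784 and 331 CPM in the knockout and 513, 565, 502 and 520 in the control. The control libraries lay close together, whereas the knockout libraries lay on both sides of them, 3 above and 1 below. The means were 635 ± 215 and 525 ± 27.6 CPM (SD, n = 4 each), and the fitted log2 difference was 0.27 ± 0.24 (SE). *Lgals3bp* showed the same split, with 122, 140, 176 and 79.9 CPM in the knockout and 116, 117, 111 and 95.2 in the control. Here too replicate 4 was the lowest knockout library, and the fitted log2 difference was 0.24 ± 0.22 (SE) between means of 130 ± 39.9 and 110 ± 10.1 CPM (SD, n = 4 each). Mitochondrial genes took 18.9, 22.3, 17.1 and 27.1% of the counts of knockout replicates 1 to 4, so the library lowest in *Lgals9* and *Lgals3bp* had the largest share. In control replicates 1 to 4 the shares were 24.9, 28.7, 30.1 and 23.3%. There *Lgals9* was lowest in the library with the largest share, and *Lgals3bp* in the library with the smallest. The part of RNA quality in these values was not tested. *Lgals9* lies on chr11:78962974-78984946 (minus strand) and *Lgals3bp* on chr11:118392751-118402092 (minus strand).

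The 2 members with the lowest levels per length were those whose direction turned between the library series. *Lgals8* (chr13:12439415-12464944, minus strand), whose product binds glycans exposed on damaged vesicles and recruits autophagy receptors, had 39.1, 45.1, 21.7 and 20.6 CPM in the knockout and 34.4, 19.7, 33.7 and 30.0 in the control. In series 1 both knockout libraries were above both control libraries, and in series 2 both were below. *Lgals1* (chr15:78926725-78930465, plus strand), the galectin typical of mesenchymal cells, had 6.49, 6.14, 3.57 and 2.82 CPM in the knockout and 3.65, 3.02, 3.61 and 7.81 in the control, and its libraries separated in the same opposite way. Over all libraries the fitted log2 differences were 0.10 ± 0.30 for *Lgals8* and 0.07 ± 0.43 for *Lgals1* (SE). The *Lgals1* values rest on 43 to 121 reads per library, and its gap in series 2 was narrow, at 3.57 against 3.61 CPM. The share of all genes that turn in this way was not counted, so nothing is read from these 2 members.

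A test of the difference between the 2 library series did not use the rule's contrast. None of the 7 galectins differed between the series in edgeR's quasi-likelihood test, with adjusted p-values of 0.684 to 0.969 and 0 of 7 under an unadjusted p of 0.05. The background was 0%, since 0 of 16445 genes were called, although 1545 had an unadjusted p under 0.05; DESeq2 called 386 genes and limma-voom called 0, and neither called a galectin. The log2 differences, series 2 minus series 1 with the genotype in the model, ran from -0.38 ± 0.30 for *Lgals8* to 0.23 ± 0.15 for *Lgals4* (SE). The genotype difference itself was then compared between the series. The log2 change in the genotype difference, series 2 minus series 1, was -1.76 ± 0.70 (SE) for *Lgals1* and -1.23 ± 0.42 (SE) for *Lgals8*, with adjusted p-values of 0.712 and 0.680 from edgeR (unadjusted 0.0394 and 0.0222). For *Lgals3*, whose genotype difference was in view when the set was chosen, it was -0.21 ± 0.38 (SE), given as a description. 0 of 7 galectins passed, 2 of 7 had an unadjusted p under 0.05, and the background was again 0% (0 of 16445 genes, 1128 under an unadjusted 0.05; DESeq2 called 125 genes and limma-voom 0, none of them a galectin). With 2 libraries in each cell of this design, its standard errors are wide, so changes of the genotype difference can be missed. The estimates of *Lgals1* and *Lgals8* exceeded their errors and did not pass, and nothing is read from them.

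**Figure D2:**
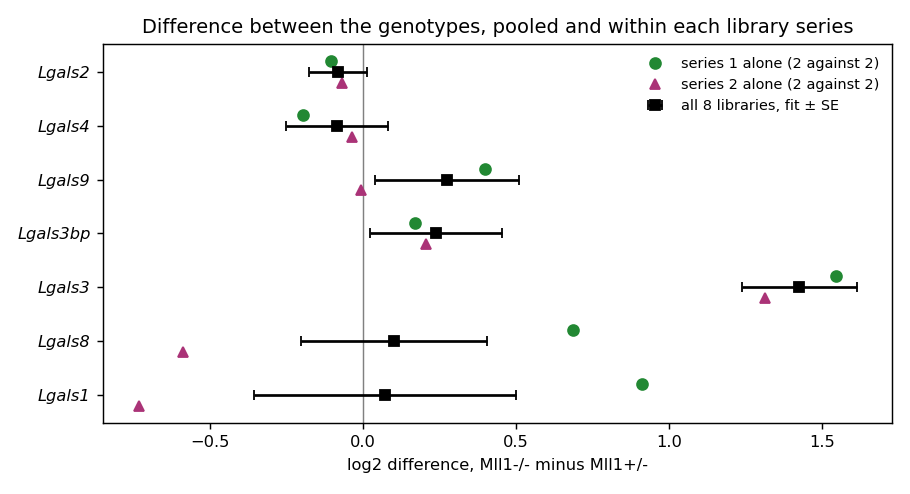
Log2 difference between the genotypes (Mll1-/- minus Mll1+/-) for each galectin. Squares with bars are the fit to all 8 libraries ± SE, and circles and triangles are the differences within library series 1 and 2 (2 libraries against 2). *Lgals3* lies at 1.43, with 1.55 and 1.31 within the series, while *Lgals8* and *Lgals1* lie near 0 in the fit and on opposite sides of 0 in the series.

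The spread among the knockout libraries was larger than among the controls for 5 of the 7 galectins. The coefficient of variation of *Lgals9* was 33.8% in the knockout and 5.26% in the control, that of *Lgals3bp* 30.8% and 9.18%, and that of *Lgals4* 26.5% and 7.45%. *Lgals3* was an exception with 11.6% and 16.1%. A larger coefficient in the knockout was found for 68.5% of the 8914 genes of at least 10 CPM, whose medians were 23.9% and 17.3%, so the direction is common to most genes. Without knockout replicate 3 the coefficient of *Lgals4* in the knockout was 8.61%, while that of *Lgals9* was 39.8%.

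Levels between genes were compared per length, as FPKM (the CPM of a gene divided by its merged exon length in kilobases). The order was *Lgals2*, *Lgals4*, *Lgals9*, *Lgals3bp*, *Lgals3*, *Lgals8* and *Lgals1*, and the FPKM levels spanned 3 orders of magnitude. Over the 8 libraries *Lgals2* ranged from 3000 to 3816 FPKM, *Lgals4* from 537 to 912 FPKM and *Lgals9* from 155 to 369 FPKM. *Lgals3bp* ranged from 28.1 to 61.8 FPKM, *Lgals3* from 6.43 to 24.8, *Lgals8* from 5.34 to 12.2 and *Lgals1* from 3.13 to 8.65. The summed level of the 7 genes was 4459 ± 333 FPKM in the knockout and 4626 ± 176 in the control (SD, n = 4 each). *Lgals2* made up 76.8% of this sum in the knockout (70.7 to 82.7% over the libraries) and 78.3% in the control (77.8 to 79.2%). *Lgals3*, for all its difference, made up 0.507% and 0.180%.

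The order was tested without *Lgals3*, whose knockout values were in view when the set was chosen. It was taken from the same 8 libraries, so the pairs and their direction came from the values tested. The p-values therefore describe how steadily the order held among the libraries and do not test an order set in advance. The 5 pairs of neighbours among the other 6 genes each differed in an exact two-sided sign-flip permutation test on the within-library differences of log2 FPKM. For the first 4 pairs the order held in 8 of 8 libraries, with p = 0.00781, the smallest that 8 libraries can give, and 0.00977 after adjustment over the 5 pairs (exact permutation). The mean log2 FPKM differences of these pairs ran from 1.35 ± 0.41 (*Lgals4* above *Lgals9*) to 2.68 ± 0.21 (*Lgals9* above *Lgals3bp*; SD, n = 8, exact permutation test). The last pair was closer and held in 7 of 8 libraries, with *Lgals8* above *Lgals1* by 0.72 ± 0.41 in log2 FPKM (SD, n = 8; adjusted p = 0.0156, exact permutation).

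The place of *Lgals3* in the order was not the same in both genotypes. In the control the FPKM of *Lgals3* was 0.991 to 1.20 times that of *Lgals8*, so that they did not differ beyond their spread there, and in the knockout it was 1.68 to 4.39 times that of *Lgals8*. Its distance below *Lgals3bp* was smaller in the knockout, where the FPKM of *Lgals3bp* was 2.10 ± 0.85 times that of *Lgals3*, against 4.75 ± 1.10 times in the control (SD, n = 4 each). Since these ratios contain the *Lgals3* difference on which the set was chosen, they carry no test. Within 1 genotype, 4 libraries cannot give a sign-flip p below 0.125.

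**Figure D3:**
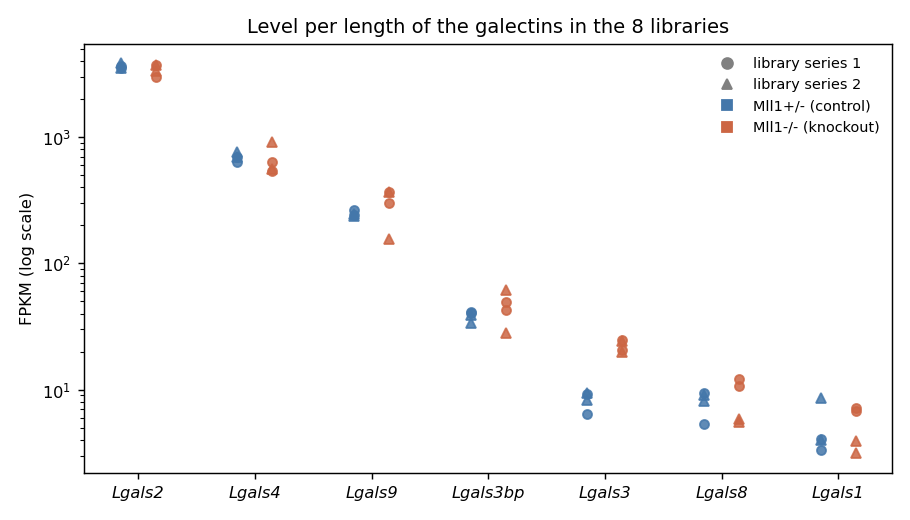
Level per length (FPKM, log scale) of the 7 galectins in the 8 libraries, ordered from highest to lowest, with control libraries in blue at the left and knockout libraries in orange at the right of each gene (circles for library series 1, triangles for series 2). *Lgals2* lies at 3000 to 3816 FPKM and *Lgals1* at 3.13 to 8.65, and *Lgals3* overlaps *Lgals8* in the control libraries and lies above it in the knockout libraries.

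Of the other galectin genes, *Lgals12* and *Lgalsl* passed the filter. *Lgals12*, known as the galectin of adipocytes, had 6.49, 7.88, 9.79 and 7.16 CPM in the knockout and 19.2, 16.0, 7.54 and 13.6 in the control. The groups overlapped through control replicate 3, and the log2 difference of -0.85 ± 0.31 (SE) did not pass (edgeR, adjusted p = 0.481, unadjusted 0.0218). *Lgalsl*, a galectin-like gene, had means of 12.9 ± 5.76 and 14.5 ± 1.45 CPM (SD, n = 4 each) and a log2 difference of -0.17 ± 0.30 (SE; edgeR, adjusted p = 0.904). 8.17% of its 31-base words also occur in transcripts of other genes, against 0% for *Lgals1*, *Lgals3*, *Lgals4*, *Lgals9* and *Lgals3bp*, 1.42% for *Lgals2* and 5.53% for *Lgals8*, mostly with *Heatr1* on the opposite strand. *Lgals7* had 0 to 11 reads per library, *Grifin*, the galectin-related protein of the lens, had 0 to 5, and both pseudogenes had 0 in all 8 libraries. The 0 of *Lgals1-ps2* says nothing of its expression, since all its exonic bases overlap *Pick1* on the same strand and all its 31-base words occur in other transcripts, and for *Lgals1-ps1* 15.7% of the words are shared.

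The glycans that galectins bind are built by branching and extending enzymes, and a list of 25 of their genes was described beside the members. 22 were tested, 0 passed, 4 had an unadjusted p under 0.05, and the median log2 difference was 0.03, beside 0.01 over all genes. The lowest p belonged to *B3gnt7*, which extends N-acetyllactosamine chains, with 2.04 ± 1.16 CPM in the knockout and 0.316 ± 0.18 in the control (SD, n = 4 each) and a log2 difference of 2.66 ± 0.65 (SE; edgeR, adjusted p = 0.249). Next was *Gcnt3*, which starts branches on mucin O-glycans, with 8.28 to 13.3 CPM in the knockout and 0.722 to 6.16 in the control, a log2 difference of 1.68 ± 0.57 (SE; edgeR, adjusted p = 0.458). *Mgat5*, whose branched N-glycans are the classic ligands of galectin-3, had 35.8 ± 16.4 and 53.6 ± 6.47 CPM (SD, n = 4 each) and a log2 difference of -0.58 ± 0.29 (SE; edgeR, adjusted p = 0.592). This list depended on the tool. DESeq2 called *B3gnt7* (adjusted p = 0.0407), whereas limma-voom called *St3gal6*, a sialyltransferase that caps galactose, at a log2 difference of -1.17 ± 0.20 (SE; adjusted p = 0.0617), and so did edgeR without knockout replicate 3 (-1.25 ± 0.17 SE, adjusted p = 0.0354). In the fit to all libraries *St3gal6* stood at -0.83 ± 0.30 (SE; edgeR, adjusted p = 0.481).

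Of 22 partners of galectins (glycoprotein ligands, and cytosolic proteins of vesicle repair and nutrient sensing), 19 were tested, 0 passed, 2 had an unadjusted p under 0.05, and the median log2 difference was -0.09. *Lamp2*, a lysosomal membrane glycoprotein, had 169 to 276 CPM in the knockout and 288 to 350 in the control, with a log2 difference of -0.51 ± 0.15 (SE; edgeR, adjusted p = 0.371). Its groups did not overlap, which holds in this direction for 2.94% of all genes. *Mtor*, the kinase whose lysosomal complex galectin-8 is known to inhibit, had 20.4 to 33.8 and 11.9 to 18.6 CPM and a log2 difference of 0.74 ± 0.25 (SE; edgeR, adjusted p = 0.451). Its groups did not overlap either, which holds in its direction for 3.34% of all genes. *Havcr2*, a receptor named for galectin-9 binding, had at most 1 read in any library, and *Ptprc*, which encodes CD45, had at most 16. The 5 most abundant partners, *Bsg*, *P4hb*, *Tfrc*, *Cd44* and *Lamp2*, are all known as surface, secretory or lysosomal proteins, and the mean of each was between 227 and 419 CPM in both groups.

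Marker lists of the cell types that the sort could hold are given beside *Lgals3*, and their part in its difference was not tested; in bulk samples, more cells of a type and more RNA per cell cannot be told apart. The 8 stem cell markers summed to 10420 to 16940 CPM in the knockout and 22560 to 26970 in the control. This sum is mostly *Olfm4* (8080 to 14430 CPM against 19280 to 22950; log2 difference -0.77 ± 0.17 SE, edgeR, adjusted p = 0.200), while *Lgr5* itself had a log2 difference of -0.06 ± 0.13 (SE; edgeR, adjusted p = 0.933). Galectin-3 is known from differentiated villus cells, and of 15 absorptive enterocyte markers 11 were tested and all 11 had a log2 difference below 0, with 0 passing; the list summed to 547 to 846 CPM in the knockout and 790 to 925 in the control. The 9 goblet markers summed to 649 to 1193 and 602 to 791 CPM, with 7 above 0 and 0 passing, and the 7 Paneth markers summed to 1329 to 2540 and 1964 to 4740 CPM, with 6 below 0 and 0 passing. The 7 epithelial markers summed to 3444 to 4149 and 2734 to 3009 CPM, with 6 above 0 and 0 passing. The median log2 difference was -1.16 over the enterocyte list and 1.09 over the goblet list, beside 0.01 over all genes. An unadjusted edgeR p under 0.05 was found for 5 of 11 tested enterocyte, 6 of 9 goblet and 5 of 7 Paneth markers. It was found for 3 of 7 epithelial and 3 of 8 stem cell markers, and for 1505 of all 16445 genes.

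Macrophages are rich in *Lgals3*, and the sort included a stain for CD45, the surface protein of blood cells. Several of their defining markers were at or near 0 in these libraries. *Adgre1* and *C1qa* had at most 1 read, *C1qc* at most 3 and *C1qb* at most 7. The 12 markers summed to 22.7 to 42.5 CPM in the knockout and 40.2 to 52.6 in the control. Most of it was *Cd14* (13.7 to 32.2 and 30.3 to 39.1 CPM) and *Cd68* (1.89 to 5.55 and 5.15 to 9.62). *Lyz2* had 0.708 to 2.78 CPM in the knockout and 1.20 to 5.935 in the control, with at most 74 reads. These 3 were the markers tested, and all had a log2 difference below 0. By mean CPM 4 of the 12 were higher in the knockout and 8 lower, and the 4 included *Itgam* (1.74 ± 1.46 against 0.113 ± 0.23 CPM, at most 56 reads), *Csf1r* (0.380 ± 0.21 against 0.241 ± 0.09) and *Mrc1* (0.539 ± 0.39 against 0.400 ± 0.48; SD, n = 4 each). The 7 T cell markers summed to 0.525 to 1.97 CPM in the knockout and 0.984 to 14 in the control. The 4 endothelial markers summed to 4.17 to 6.11 and 4.22 to 5.94 CPM, nearly all *Pecam1*. The 10 stromal markers summed to 49.6 to 119 CPM in the knockout and 4.33 to 6.75 in the control. Most of that gap was *Vim*, which encodes vimentin, at 44.3 to 116 CPM against 0.194 to 4.89 (log2 difference 4.49 ± 0.70 SE, edgeR, adjusted p = 0.108), and the other tested marker, *Pdgfrb*, had 1.86 ± 2.67 CPM in the knockout and 0.783 ± 0.84 in the control (SD, n = 4 each; at most 108 reads; log2 difference 1.24 ± 1.19 SE, edgeR, adjusted p = 0.802). The remaining 8 had at most 25 reads in any library, with 22 for *Dcn*, 25 for *Col1a2*, 21 for *Sparc* and 2 for *Pdgfra*. By mean CPM 8 of the 10 stromal markers were higher in the knockout, among them *Dcn* (0.453 against 0.0724), *Col1a2* (0.738 against 0.281) and *Sparc* (0.345 against 0.110). The part of other cell types in the *Vim* and *Lgals3* values was not tested.

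**Figure D4:**
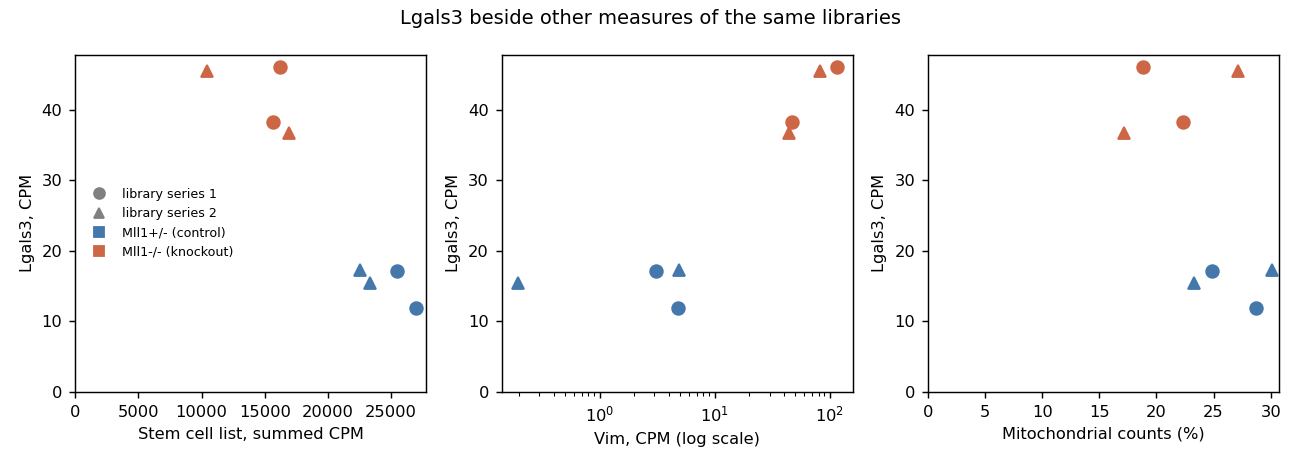
*Lgals3* (CPM, vertical axes) against the summed CPM of the stem cell list, the CPM of *Vim* (log scale) and the share of mitochondrial counts (%), with 1 symbol per library (blue, Mll1+/-; orange, Mll1-/-; circles for library series 1, triangles for series 2). The groups are apart on both axes for the stem cell list (at most 16940 against at least 22560 CPM) and for *Vim* (at least 44.3 against at most 4.89 CPM), and overlap in the mitochondrial share.

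The genes nearest to each member in pattern were taken from the 8914 genes of at least 10 CPM by Pearson's r of log2 CPM over the 8 libraries, with the genotype means removed, so the values describe only how libraries of 1 genotype vary. For *Lgals3* they were *Usp37* (r = 0.921), *Lsm10* (0.917) and *Uros* (0.917), and none of these shared its difference between the genotypes, with log2 differences of 0.05, -0.10 and -0.12. For *Lgals2* they were *Rps19* (r = 0.973), *Slitrk2* (0.970) and *Rps27rt* (0.969). *Lgals4* was nearest to *Rsrp1* (r = 0.984), *Lgals9* to *Chchd2-ps* (0.989), *Lgals3bp* to *Itpa-ps1* (0.982) and *Lgals8* to *Stx7* (0.975). Libraries share depth, composition and quality, and the highest of 8914 correlations over 8 libraries is high by selection.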

How the data were processed

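Per the file headers and the submitters' processing notes, GSNAP alignments to mm10 were counted per gene by the authors with featureCounts 1.6.3 without using strand. They deposited these counts without normalization, and beside them the gene length over merged exons. The second table they deposited holds a signal, the counts of a library divided by 1 size factor, which served here only to find the members by symbol. Replicate numbers follow accession order and name the mouse.

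Counts were filtered with filterByExpr (minimum 10), scaled with TMM and fitted with edgeR 4.0.16 in R 4.3.3 (robust quasi-likelihood test, genotype as the only term, Benjamini-Hochberg adjustment over 16445 genes, threshold 0.1 as in the study's methods). The SE is the log2 difference divided by the root of F. CPM and FPKM use the TMM-scaled libraries. Neighbours in the order of levels were tested without *Lgals3*, a choice made after seeing the data. The library series was tested with the genotype in the model and as an interaction with it. Smart-seq2 reads carry no molecular identifiers, so reads are not counts of molecules. Each SD and SE covers the spread between libraries. P-values set a difference against the spread between libraries. With 1 library per mouse, the spread between mice and that of library preparation cannot be told apart. DESeq2 1.42.0, limma 3.58.1 (voom with quality weights), other scalings and filters, the series block, an *Xist* covariate (sex is not labelled) and each library left out were alternatives. The scripts were tested on simulated data.

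The members and gene lists were chosen with earlier results of these data known. Text names the 7 members, other genes with a galectin symbol, *Kmt2a*, list genes that were called or else the 2 of lowest unadjusted p, defining cell type markers, and the 3 nearest patterns of each member above 10 CPM. *Mgat5*, *St3gal6*, *Havcr2*, *Ptprc* and the 5 most abundant partners were named after their values were seen. Shared 31-base words were counted in GENCODE M21 transcripts.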

Additional observations from a re-analysis of the deposited data

Results flagged for a closer look

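*Lgals1* in control replicate 4, at 7.81 CPM, lay far from the other control libraries, which held 3.02 to 3.65 CPM. Its gap to the nearest library exceeded Dixon's critical value for 4 samples. It was the 1 such case in 14 groups of 4 examined, and chance gives about 1 in 20 groups. Without it, the fitted log2 difference of *Lgals1* between the genotypes was 0.47 in place of 0.07.

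*Lgals1* and *Lgals8* were flagged for separating in opposite directions. In series 1 both knockout libraries were above both control libraries, and in series 2 both were below. For *Lgals1* the gap in series 2 was 3.57 against 3.61 CPM, on 66 and 45 reads. The share of all genes with this pattern was not counted. The genotype difference changed by -1.76 on the log2 scale for *Lgals1* and by -1.23 for *Lgals8* between the series (series 2 minus series 1), and neither passed edgeR's test of that change over all genes (adjusted p = 0.712 and 0.680). The *Lgals1* value includes control replicate 4.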

How the results depend on the processing

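The log2 difference of *Lgals3* stayed between 1.32 and 1.48, and that of each other member moved by less than the SD of its log2 CPM between libraries of 1 genotype, under the 16 alternatives tried for each. *Lgals4* moved by more than its SE, from -0.08 ± 0.17 to -0.28 without knockout replicate 3. The sign turned within these ranges for *Lgals1* (-0.12 to 0.47) and *Lgals8* (-0.12 to 0.35). Galectins called between the genotypes numbered 0 in place of 1 with the series as a block or the *Xist* covariate, and 0 to 1 when 1 library was left out. Genes called between the genotypes numbered 8 with upper-quartile scaling, 47 without a filter, 34 with at least 10 counts in every library, 406 with DESeq2, 103 with limma-voom, 0 with the block or the *Xist* covariate, and 0 to 45 (14 in all libraries) when 1 library was left out, with the 45 reached without knockout replicate 3. In the glycan list DESeq2 and limma-voom called 1 gene each, and leaving out 1 library gave 0 to 1. Between the series, 675 genes were called without a filter, 1 with at least 10 counts in every library and 386 with DESeq2. For the change of the genotype difference, 423 were called without a filter, 125 with DESeq2 and 0 to 918 when 1 library was left out, the 918 without knockout replicate 4. The causes were not tested. The order of levels was the same in all 13 alternatives, of which the length of the longest coding transcript and the order without *Lgals3* were chosen after seeing the data, and 0 of 6 pairs could pass within the 4 control or the 4 knockout libraries alone. No paired analysis was possible because the labels carry no replicate numbers. Scaling moved the median of all genes by less than 0.1 on the log2 scale. With 4 mice a group the SE of the log2 difference ran from 0.09 for *Lgals2* to 0.43 for *Lgals1*, and differences larger than these errors can also go undetected.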
